A study of Mus musculus with 24 samples.

Results

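The 10 genes described here are known for their roles or their expression in trophoblast: Cdx2, Elf5, Tfap2c, Ascl2, Krt7, Krt8, Krt18, Plac1, Syna and Rhox9. Each was found through the array platform's annotation as a probe set (a group of probes for 1 transcript) with that single gene symbol. All 10 were found, each with 1 probe set, among 19938 genes with a single symbol. Their levels were followed in mouse embryonic stem cells (ESCs) that lack Eed and in wild-type ESCs, before and during differentiation. EED belongs to the core of PRC2, the Polycomb complex that marks histone H3 by methylation and helps to hold developmental genes silent.

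The series holds 24 Affymetrix Mouse Gene 1.0 ST arrays of total RNA. Day 0 samples were ESCs, grown with LIF, which keeps them undifferentiated, over mitomycin-treated embryonic fibroblasts (feeders). Day 3 and day 7 samples were embryoid bodies, cell aggregates that were started in hanging drops without LIF from ESCs depleted of feeders. Each genotype and day had 4 arrays: the Eed knockout (KO) groups held 2 arrays of line E14 and 2 of line J1, and the wild-type (WT) groups held 2 arrays of line J1 and 2 of line V6.5. J1 is thus the only line with both genotypes, and line and genotype cannot be told apart outside it. The labels state neither the deleted part of Eed nor whether the 2 arrays of a line and day came from separate cultures. P-values therefore measure only how far these arrays spread, and that spread may be technical.

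All values below are log2 expression values, so a difference of 1 is a 2-fold difference. A gene was called where limma's adjusted p (Benjamini-Hochberg, over all 19938 genes) was under 0.05 and the difference was at least 2-fold. Higher, lower, rose and fell are said of called differences only, ± gives the standard error (SE) of the model, and SD is over 4 arrays. Levels of different probe sets are not compared. As a mark of background, 95% of 1015 olfactory receptor genes, most of which are silent outside the nose, had a mean under 6.26. The Eed probe set was lower in KO on all 3 days, with KO minus WT at -3.44 ± 0.23, -3.69 ± 0.23 and -3.23 ± 0.23 (limma, adjusted p = 2.7e-09, 3.3e-10 and 9.2e-10). Its KO arrays lay between 5.76 and 7.48 and its WT arrays between 9.37 and 11.02. Across genes, the 2 arrays of a line and day had r of 0.990 or above, except those of J1 WT on day 7 (r = 0.962), which stood 2-fold or more apart in 1256 genes. Of the 10 genes, 4 were among these: Krt7, Krt18, Plac1 and Rhox9 were brighter on array 2.

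Trophoblast is the first lineage set apart in the mammalian embryo, and it builds the placenta's side of the exchange with the mother. CDX2, ELF5 and TFAP2C are transcription factors of trophoblast stem cells, and in ESCs the Elf5 promoter is known for its DNA methylation. Keratins 7, 8 and 18 are filament proteins of simple epithelia, trophoblast included. ESCs rarely enter this lineage under ordinary conditions. Several of the genes are also active elsewhere: Krt8 and Krt18 in endoderm and other epithelia, Cdx2 in posterior mesoderm and hindgut, and Tfap2c in germ cells and naive ESCs. Since Elf5 and several genes of differentiated trophoblast were under background, no sample is called trophoblast, and the genes are described one by one. On day 0 all 8 pluripotency markers were above background in both genotypes, as the ESC label asks. In bulk samples, fewer cells of a type and less RNA per cell cannot be told apart.

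The promoters of the 3 keratin genes and of Cdx2 are shown because on day 7 Krt7 was called between the genotypes while Krt8 and Krt18, on the same chromosome, were not, and because Cdx2 was the 1 gene lower in KO. Each run is the 250 bases before the gene's start, 5′ to 3′ on the gene's strand, from RefSeq on assembly GRCm38.p6, with every CG dinucleotide, the site of DNA methylation, in capitals. The positions are chr15:101412153-101412402 (plus strand) for Krt7, chr15:102004343-102004592 (minus strand) for Krt8, chr15:102027966-102028215 (plus strand) for Krt18 and chr5:147307250-147307499 (minus strand) for Cdx2.
Krt7: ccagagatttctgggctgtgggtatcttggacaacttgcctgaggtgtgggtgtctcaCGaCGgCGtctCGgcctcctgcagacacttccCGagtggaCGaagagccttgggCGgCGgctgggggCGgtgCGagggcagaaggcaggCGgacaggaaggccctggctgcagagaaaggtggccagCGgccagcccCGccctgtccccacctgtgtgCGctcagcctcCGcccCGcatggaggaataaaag
Krt8: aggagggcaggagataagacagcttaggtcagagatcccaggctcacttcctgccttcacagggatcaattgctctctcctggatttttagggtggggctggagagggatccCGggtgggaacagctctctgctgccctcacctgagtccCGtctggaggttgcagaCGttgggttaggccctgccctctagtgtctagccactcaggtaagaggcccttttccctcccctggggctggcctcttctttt
Krt18: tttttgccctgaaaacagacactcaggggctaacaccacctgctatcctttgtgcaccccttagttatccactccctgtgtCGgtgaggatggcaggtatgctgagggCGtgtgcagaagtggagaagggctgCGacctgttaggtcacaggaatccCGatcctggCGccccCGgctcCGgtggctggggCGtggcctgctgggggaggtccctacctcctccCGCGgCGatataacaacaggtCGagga
Cdx2: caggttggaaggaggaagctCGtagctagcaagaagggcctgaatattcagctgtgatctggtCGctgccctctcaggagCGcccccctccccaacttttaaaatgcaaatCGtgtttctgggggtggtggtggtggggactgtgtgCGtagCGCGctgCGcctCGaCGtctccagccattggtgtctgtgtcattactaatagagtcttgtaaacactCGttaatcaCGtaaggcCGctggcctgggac
Krt7 held 16 CG in these bases, Cdx2 13, Krt18 12 and Krt8 3, against a median of 6 over 32851 promoters of the same length. At least 16 CG stood in 25.4% of all promoters, at least 12 in 33.5% and at least 3 in 71.0%. Krt8 and Krt18, whose proteins pair in one filament and whose genes are neighbours, thus differed widely in CG content. The letters GCCNNNGGC, a palindrome that AP-2 factors such as TFAP2C are known to bind, were found 2 times in the Krt7 promoter and 1 time each in Cdx2, Krt18 and Syna. They stood in 13.7% of all promoters, and the letters TATAAA (both strands), found in none of the members' promoters, in 12.4%. Of the 10 genes, 8 matched the promoter table, with 10 promoters in all, since Elf5 and Plac1 had more than 1 start: the other counts were 19 CG for Ascl2, 2 and 8 for Elf5, 4 and 2 for Plac1, and 4 for Syna. No array measures methylation or binding, so these letters describe the sequences only.

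**Figure D1:**
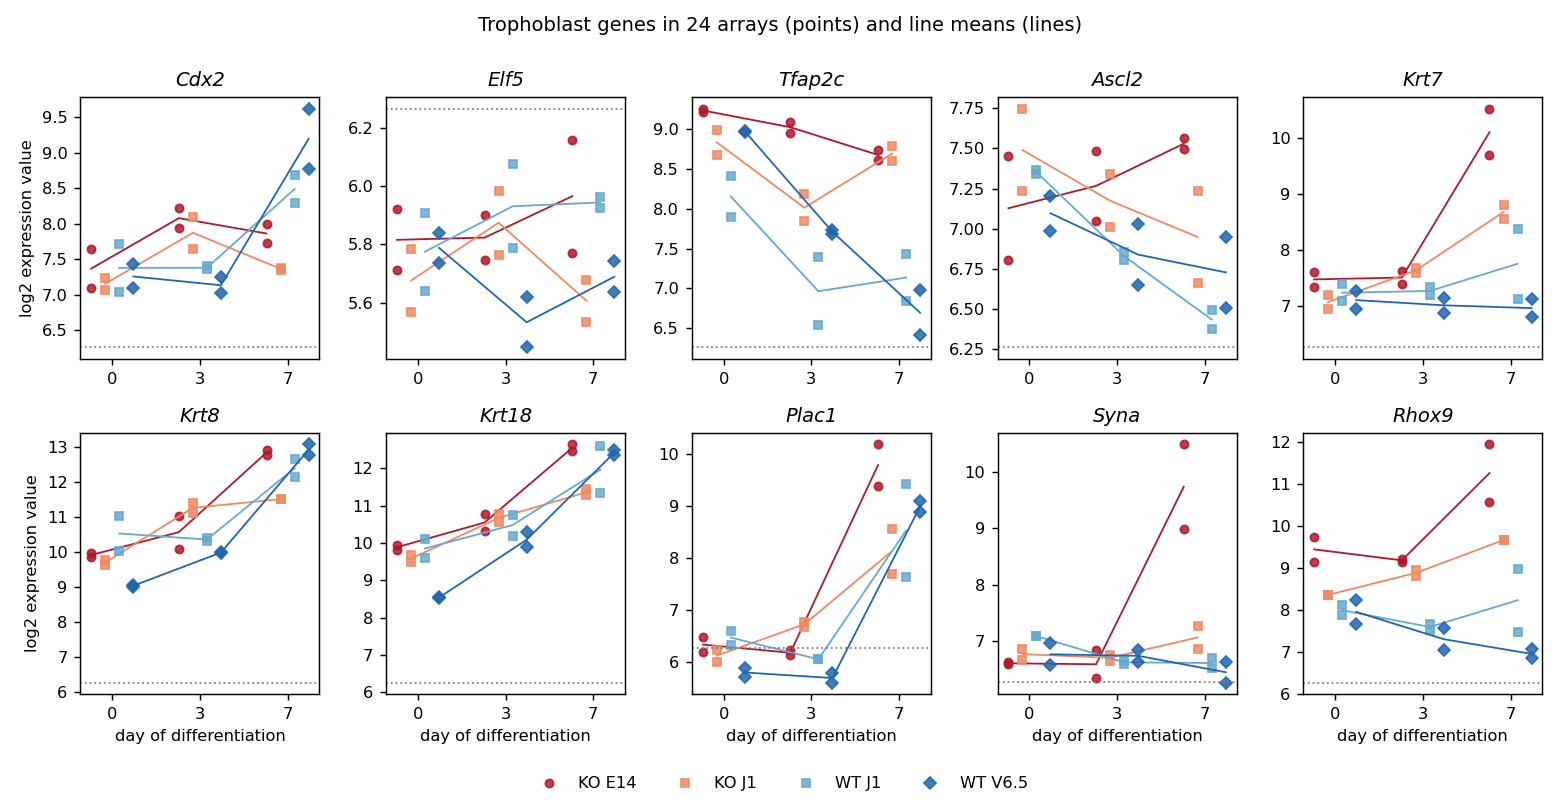
Log2 expression of the 10 genes on each of the 24 arrays (points) by day, genotype and line; the dotted line marks the background level of 6.26. On day 7 the KO points of Rhox9, Krt7, Syna and Tfap2c lie above the WT points. For Syna the E14 KO points stand apart, and the J1 KO points (7.26 and 6.85) lie close to the WT points. Cdx2 is brighter in WT on day 7. Krt8, Krt18 and Plac1 rise in both genotypes, and all 24 Elf5 values lie under the dotted line.

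On day 7, 4 of the 10 genes were higher in KO embryoid bodies (Rhox9, Krt7, Syna and Tfap2c) and 1 was lower (Cdx2). Over all genes tested, 3.08% were higher and 1.28% lower in this comparison. The median difference of the 10 genes was 0.43, beside -0.04 over all genes. On day 0 none of the 10 was called by limma, where 0.552% of all genes were, and 1 (Rhox9) had an unadjusted p under 0.05. On day 3 Tfap2c alone was higher, where 0.667% of all genes were. The 4 KO arrays lay above the 4 WT arrays for Rhox9 alone on day 0 (6.33% of all genes), for Cdx2, Tfap2c, Krt7, Plac1 and Rhox9 on day 3 (6.12%) and for Tfap2c, Krt7, Syna and Rhox9 on day 7 (9.7%). For Cdx2 they lay below on day 7 (7.13%), and for no member on days 0 and 3 (5.01% and 4.3%).

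**Figure D2:**
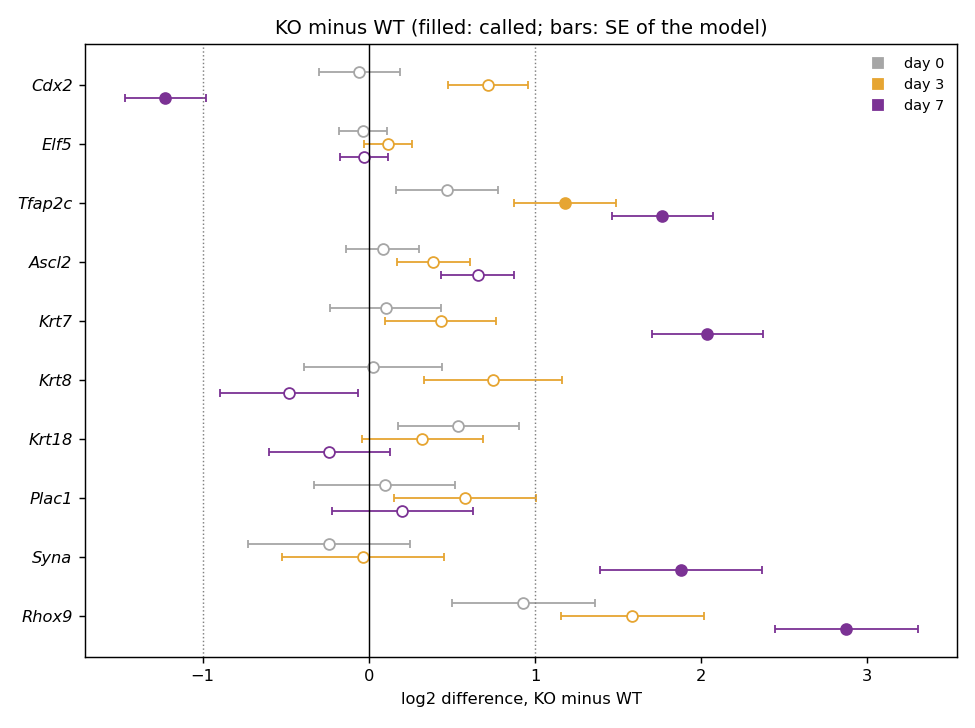
KO minus WT difference in log2 expression of each gene on days 0, 3 and 7; filled points were called, bars are the SE of the model, and dotted lines mark 2-fold. On day 7, Rhox9 stands at 2.87 and Cdx2 at -1.23, while Krt8, Krt18, Plac1 and Elf5 lie within 2-fold.

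Among the transcription factors, Cdx2, which specifies trophectoderm and later patterns the posterior body, was read at 7.09 and 7.65 in E14 KO, 7.24 and 7.07 in J1 KO, 7.04 and 7.72 in J1 WT and 7.09 and 7.43 in V6.5 WT on day 0. On day 3 it was read at 7.94 and 8.22 in E14 KO, 8.10 and 7.65 in J1 KO, 7.36 and 7.40 in J1 WT and 7.02 and 7.24 in V6.5 WT. On day 7 the values were 7.998 and 7.72 in E14 KO, 7.35 and 7.38 in J1 KO, 8.69 and 8.29 in J1 WT and 8.77 and 9.61 in V6.5 WT. The genotypes overlapped on day 0, stood apart with KO above on day 3 and stood apart with WT above on day 7. The difference was 0.72 ± 0.24 on day 3 (limma, adjusted p = 0.15, not called) and -1.23 ± 0.24 on day 7 (adjusted p = 0.00095). The day 7 call ended without the J1 KO clone (-0.98, adjusted p = 0.052), and the difference fell under 2-fold without the V6.5 WT clone (-0.87) or its day 7 array 2 (-0.96). Within WT, Cdx2 rose by 1.52 ± 0.21 from day 0 to day 7 (adjusted p = 2.4e-06), while in KO the change was 0.35 ± 0.21 (adjusted p = 0.28). From day 0 to day 3 the KO change was 0.71 ± 0.21 (limma, adjusted p = 0.038), past the p threshold and under 2-fold. In WT that change was -0.06 ± 0.21 (adjusted p = 0.93).

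Tfap2c, an AP-2 factor of trophoblast stem cells and germ cells, was read on day 0 at 9.22 and 9.25 in E14 KO, 8.99 and 8.68 in J1 KO, 7.90 and 8.41 in J1 WT and 8.98 and 8.97 in V6.5 WT. On day 3 it was read at 8.96 and 9.09 in E14 KO, 7.84 and 8.19 in J1 KO, 7.39 and 6.54 in J1 WT and 7.74 and 7.68 in V6.5 WT. On day 7 the values were 8.74 and 8.61 in E14 KO, 8.60 and 8.79 in J1 KO, 6.84 and 7.43 in J1 WT and 6.42 and 6.98 in V6.5 WT. All 4 KO arrays of day 7 were thus close together (SD 0.094), and above every WT array of that day. In WT the level fell by 1.23 ± 0.26 to day 3 and by 1.65 ± 0.26 to day 7 (limma, adjusted p = 0.0023 and 1.8e-05). In KO the changes were -0.52 ± 0.26 and -0.35 ± 0.26 (adjusted p = 0.30 and 0.42). KO exceeded WT by 1.77 ± 0.31 on day 7 (adjusted p = 0.00025), a call kept under every alternative, and by 1.18 ± 0.31 on day 3 (adjusted p = 0.041).

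The day 3 call of Tfap2c ended with the arrays of a line and day averaged (adjusted p = 0.33), with the arrays centred on their medians (0.056), with the replicate number as a block (0.051), and without the E14 KO clone (0.68, adjusted p = 0.78) or the J1 WT clone (0.81, adjusted p = 0.099). It also ended without any 1 of 7 arrays: E14 KO day 3 array 1 (adjusted p = 0.12) or 2 (0.16), J1 KO day 0 array 1 (0.051), J1 KO day 3 array 2 (0.057), J1 WT day 0 array 2 (0.057), and J1 WT day 3 array 1 (0.055) or 2 (0.14). The fall of Tfap2c in WT to day 3 was lost without the V6.5 clone (adjusted p = 0.063) and was under 2-fold without J1 WT day 3 array 2 (-0.98). Without the V6.5 clone the fall of Tfap2c to day 7 was -1.02 (adjusted p = 0.043).

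Ascl2, a factor needed for spongiotrophoblast, spanned 6.38 to 7.74 over the 24 arrays. Its KO means were 7.31, 7.22 and 7.24 and its WT means 7.22, 6.83 and 6.58 on days 0, 3 and 7. The day 7 difference of 0.66 ± 0.22 passed limma's p threshold (adjusted p = 0.042) and was under 2-fold, as was the change of -0.64 ± 0.19 in WT from day 0 to day 7 (adjusted p = 0.0081). Elf5, the ETS factor that marks commitment to trophoblast, was read between 5.45 and 6.16, under the background level on all 24 arrays. Its highest line mean exceeded its lowest by 0.43, less than the median range of 0.65 over all genes. KO minus WT for Elf5 was -0.04 ± 0.14, 0.12 ± 0.14 and -0.03 ± 0.14 on days 0, 3 and 7, and near the background differences are compressed.

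Of the 3 keratins, Krt7 was higher in KO on day 7, and Krt8 and Krt18 were not called between the genotypes on any day with all arrays. Without the J1 WT clone, Krt18 on day 0 was called, at 1.20 (adjusted p = 0.020) in place of 0.54. Krt7, a keratin of trophoblast and duct epithelia, lay between 6.94 and 7.61 in KO and between 6.94 and 7.39 in WT on day 0, and on day 3 between 7.40 and 7.69 in KO and between 6.87 and 7.34 in WT. On day 7 it was read at 9.70 and 10.53 in E14 KO, 8.81 and 8.56 in J1 KO, 7.13 and 8.38 in J1 WT and 7.13 and 6.80 in V6.5 WT. All KO arrays of day 7 were above all WT arrays, E14 being the brightest, and J1 WT array 2 came closest to the dimmest KO array. Krt7 rose by 2.12 ± 0.28 in KO (limma, adjusted p = 1.4e-05), against 0.19 ± 0.28 in WT (adjusted p = 0.67). KO exceeded WT by 2.04 ± 0.33 (adjusted p = 0.00014), and by 1.32 (adjusted p = 0.013) without the E14 KO clone.

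Krt8 was read on day 7 at 12.78 and 12.93 in E14 KO, 11.52 and 11.52 in J1 KO, 12.15 and 12.66 in J1 WT and 13.09 and 12.79 in V6.5 WT. Its partner Krt18 was read at 12.46 and 12.63 in E14 KO, 11.43 and 11.28 in J1 KO, 11.34 and 12.58 in J1 WT and 12.49 and 12.34 in V6.5 WT. For both genes the genotypes overlapped and J1 KO was at the dim end, with J1 WT array 1 for Krt18. On day 0 their means in KO and WT were 9.81 ± 0.14 and 9.79 ± 0.95 (SD, n = 4) for Krt8, and 9.73 ± 0.20 and 9.19 ± 0.78 (SD, n = 4) for Krt18. Both rose in both genotypes by day 7: Krt8 by 2.38 ± 0.35 in KO and 2.88 ± 0.35 in WT, Krt18 by 2.22 ± 0.31 in KO and 3.00 ± 0.31 in WT (limma, adjusted p between 4.9e-08 and 5.1e-05). KO minus WT on day 7 was -0.48 ± 0.42 for Krt8 (adjusted p = 0.50) and -0.24 ± 0.36 for Krt18 (adjusted p = 0.73). The rise of Krt8 in WT was 1.87 without the V6.5 clone.

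Plac1, an X-linked gene enriched in placenta, was near or under the background on days 0 and 3, at 5.71 to 6.60 on day 0 and 5.6 to 6.77 on day 3. On day 7 it was read at 9.39 and 10.18 in E14 KO, 8.57 and 7.70 in J1 KO, 7.64 and 9.42 in J1 WT and 8.89 and 9.09 in V6.5 WT. Every array of day 7 was above every array of the earlier days, and the genotypes overlapped. Plac1 rose by 2.74 ± 0.36 in KO and 2.63 ± 0.36 in WT (limma, adjusted p = 1.3e-05 and 3e-06), with a KO minus WT difference of 0.20 ± 0.43 on day 7 (adjusted p = 0.81). Both day 0 means of Plac1 (6.23 and 6.13) were under the background level of 6.26, so these rises start from a probe set not above background and may understate the change.

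Syna encodes syncytin-A, the envelope protein of retroviral origin that fuses trophoblast cells into the syncytium. It lay between 6.57 and 7.09 on day 0 and between 6.33 and 6.83 on day 3 over both genotypes. On day 7 it was read at 8.99 and 10.49 in E14 KO, 7.26 and 6.85 in J1 KO, 6.68 and 6.52 in J1 WT and 6.25 and 6.62 in V6.5 WT. The E14 KO arrays stood apart from the other 6, of which the J1 KO arrays were the brightest. The difference was 1.88 ± 0.49 (limma, adjusted p = 0.0091), with KO means of 8.40 ± 1.67 and WT means of 6.52 ± 0.19 (SD, n = 4). The Syna difference was 0.54 (adjusted p = 0.073) without the E14 KO clone, 3.22 without the J1 KO clone and 1.21 without E14 KO day 7 array 2. The call also ended without the V6.5 WT clone (adjusted p = 0.071) and with averaged arrays (0.13). Syna rose in KO by 1.72 ± 0.41 (adjusted p = 0.0053), a call that ended with averaged arrays (0.083) and without the E14 clone (0.30, adjusted p = 0.49). That rise was 3.14 without the J1 clone and 1.06 without E14 KO day 7 array 2.

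Rhox9, an X-linked homeobox gene expressed in placenta and germ cells, was read on day 0 at 9.14 and 9.74 in E14 KO, 8.35 and 8.36 in J1 KO, 7.87 and 8.11 in J1 WT and 7.67 and 8.23 in V6.5 WT. On day 3 it was read at 9.14 and 9.22 in E14 KO, 8.81 and 8.95 in J1 KO, 7.67 and 7.51 in J1 WT and 7.04 and 7.55 in V6.5 WT. On day 7 the values were 10.58 and 11.94 in E14 KO, 9.65 and 9.67 in J1 KO, 7.48 and 8.97 in J1 WT and 7.05 and 6.84 in V6.5 WT. All KO arrays were above all WT arrays on each day, with the narrowest gap on day 0. The differences were 0.93 ± 0.43, 1.59 ± 0.43 and 2.87 ± 0.43 on days 0, 3 and 7 (limma, adjusted p = 0.36, 0.053 and 4.7e-05), and the day 7 call was kept under every alternative, with the Rhox9 difference at 2.08 without the E14 KO clone and 3.67 without the J1 KO clone. Rhox9 rose in KO by 1.56 ± 0.37 from day 0 to day 7 (adjusted p = 0.0043), a call that ended without the E14 clone (1.31, adjusted p = 0.089), and in WT the change was -0.38 ± 0.37 (adjusted p = 0.47).

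The day 3 difference of Rhox9, not called at an adjusted p of 0.053, passed the threshold with no clone block (0.041), with the replicate number as a block (0.044) and without the J1 WT clone (0.039). It also passed without any 1 of these day 7 arrays, which enter that difference through the pooled spread: E14 KO array 2 (0.020), J1 WT array 1 (0.0496) or 2 (0.014), or V6.5 WT array 2 (0.045).

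From day 0 to day 7, 6 of the 10 genes rose in KO (Krt7, Krt8, Krt18, Plac1, Syna and Rhox9), where 2.05% of all genes rose, and none fell. In WT, 4 rose (Cdx2, Krt8, Krt18 and Plac1), where 5.09% of all genes rose, and Tfap2c fell, where 3.89% did. Krt8, Krt18 and Plac1 were called in both genotypes. By day 3, Krt18 had risen in WT by 1.09 ± 0.31 (limma, adjusted p = 0.021; 0.958% of all genes rose) and Tfap2c had fallen (1.08% fell). In KO none of the 10 was called by limma on day 3, where 1.17% of all genes were, and 3 had an unadjusted p under 0.05. The largest KO change by day 3 was that of Krt8, at 1.11 ± 0.35 (adjusted p = 0.063). Krt8 was called with the low-signal filter (0.047), without the J1 WT clone (0.016) or both its day 7 arrays (0.038), and without E14 KO day 3 array 1 (1.43, adjusted p = 0.019), J1 WT day 0 array 2 (0.026) or J1 WT day 7 array 1 (0.042), and it stood at 0.66 without the J1 KO clone. The comparisons of day 3 and day 7 with day 0 share the day 0 arrays. Over the same 7 days, 7 of 18 extraembryonic endoderm markers rose in KO (median 0.74) and 9 of 18 in WT (median 1.17), and 1 and 2 of 14 simple epithelium markers rose while none and 5 fell. Of 8 pluripotency markers 1 fell in KO (median -0.56) and 8 fell in WT (median -3.79). Of 14 feeder fibroblast markers none rose and 4 fell in KO (median -0.17), and 6 rose and 3 fell in WT (median 0.82). Only the day 0 samples were grown over feeders, so a loss of feeder RNA and a change in the cells cannot be told apart. The part of all these cells in the changes of the 10 genes was not tested. The day 3 call of Krt18 ended with averaged arrays (adjusted p = 0.14), without the V6.5 WT clone (0.63, adjusted p = 0.51) and without J1 WT day 3 array 2 (0.088), V6.5 WT day 0 array 1 (0.095) or 2 (0.098), or V6.5 WT day 3 array 1 (0.059).

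**Figure D3:**
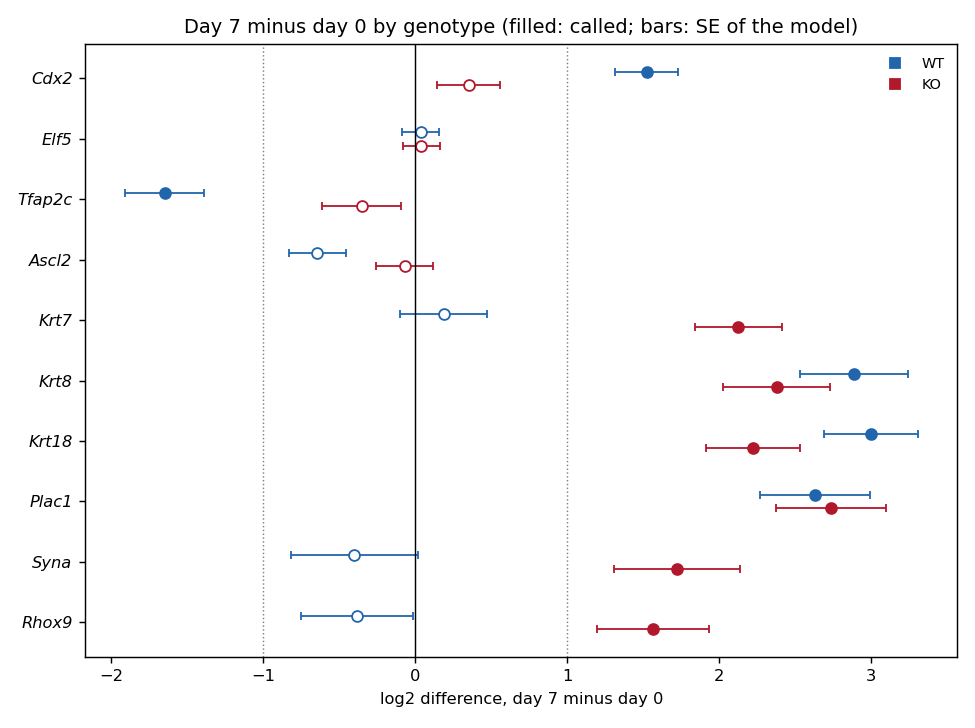
Change in log2 expression from day 0 to day 7 in WT and KO for each gene; filled points were called, bars are the SE of the model and dotted lines mark 2-fold. Plac1, Krt8 and Krt18 rose in both genotypes, Krt7, Syna and Rhox9 are called only among the KO points, and Cdx2 (1.52) and Tfap2c (-1.65) only among the WT points.

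Whether these changes differed between genotypes was tested as an interaction, the day 7 difference between KO and WT less the day 0 difference. It was above 0 and called for 4 of the 10 genes (1.93% of all genes) and below 0 and called for 1 (1.45% of all genes). It was 1.94 ± 0.40 for Krt7, 2.12 ± 0.59 for Syna, 1.95 ± 0.52 for Rhox9 and 1.30 ± 0.37 for Tfap2c, and -1.17 ± 0.29 for Cdx2 (limma, adjusted p = 0.0033, 0.025, 0.020, 0.029 and 0.013). For the other 5 genes the interaction lay between -0.78 (Krt18) and 0.57 (Ascl2) and was not called; it was called for Krt18 without the J1 WT clone (-1.66, adjusted p = 0.0063) and for Ascl2 without the J1 KO clone (1.04, adjusted p = 0.039). On day 3 the interaction was called by limma for none of the 10, where 0.0502% of all genes were called, and 1 had an unadjusted p under 0.05. Without the V6.5 WT clone none was called, with values of 1.61 for Krt7 (adjusted p = 0.16), 2.20 for Syna (0.23), 1.33 for Rhox9 (0.41), 0.67 for Tfap2c (0.51) and -0.76 for Cdx2 (0.25). Without the E14 KO clone none was called either, with 1.43 for Krt7 (adjusted p = 0.062), 0.70 for Syna (0.12), 1.69 for Rhox9 (0.096), 1.51 for Tfap2c (0.096) and -1.31 for Cdx2 (0.075). Without the J1 KO clone Rhox9 (0.0505), Tfap2c (0.22) and Cdx2 (0.17) were lost and Syna stood at 3.54, and without the J1 WT clone Syna was lost (0.14). Averaged arrays left the call of Krt7 alone, with adjusted p = 0.051 for Cdx2, 0.098 for Rhox9, 0.16 for Tfap2c and 0.18 for Syna.

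Of single arrays, the Syna interaction was lost without E14 KO day 0 array 1 (adjusted p = 0.057) or 2 (0.056), E14 KO day 7 array 1 (0.056) or V6.5 WT day 7 array 1 (0.057). The Rhox9 interaction was lost without V6.5 WT day 7 array 1 (0.0534) or 2 (0.0531). The Tfap2c interaction was lost without J1 KO day 0 array 2 (0.059), J1 KO day 7 array 2 (0.065), V6.5 WT day 0 array 1 (0.070) or 2 (0.066), or V6.5 WT day 7 array 1 (0.083) or 2 (0.052). The Cdx2 interaction was under 2-fold without V6.5 WT day 7 array 2 (-0.91). With no clone block, Tfap2c (0.061) and Rhox9 (0.059) were lost.

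Within line J1, the only line with both genotypes, on day 7, 2 of the 10 genes were higher in KO (2.91% of all genes) and 1 was lower (1.38% of all genes). J1 KO minus J1 WT was 1.56 ± 0.25 for Tfap2c, 1.44 ± 0.39 for Rhox9 and -1.12 ± 0.26 for Cdx2 (limma, adjusted p = 0.00040, 0.020 and 0.0084). Krt7 differed by 0.93 ± 0.30 and Krt8 by -0.88 ± 0.27, past the p threshold and under 2-fold (adjusted p = 0.046 and 0.038), and Syna by 0.46 ± 0.31 (adjusted p = 0.35). On day 3 Tfap2c alone was called, at 1.05 ± 0.25 (adjusted p = 0.031), where 0.742% of all genes were higher. On day 0 none of the 10 was called by limma, where 0.456% of all genes were, and 2 had an unadjusted p under 0.05. With 2 arrays a side, most of these calls rested on single arrays. Rhox9 on day 7 was lost without J1 KO array 1 (adjusted p = 0.084) or 2 (0.11) or J1 WT array 1 (0.69, adjusted p = 0.20), and was 2.18 without J1 WT array 2. Cdx2 was lost without J1 KO array 1 (0.051) or 2 (0.056) and was under 2-fold without J1 WT array 1 (-0.92). Tfap2c on day 3 was lost without J1 KO array 1 (0.063) or 2 (0.33) or J1 WT array 2 (0.62, adjusted p = 0.54). Without J1 WT day 7 array 2 Krt7 was called at 1.55 (adjusted p = 0.00045), and it stood at 0.30 without array 1. Without J1 WT day 7 array 1, Krt8 (-1.14, adjusted p = 0.012), Krt18 (-1.23, adjusted p = 0.00098) and Plac1 (-1.29, adjusted p = 0.0028) were called, and without array 2 they stood at -0.63, 0.02 and 0.50. Krt8 on day 0 was called without J1 WT day 0 array 1 (-1.33, adjusted p = 0.040). Rhox9 on day 3, at 1.29 ± 0.39 (adjusted p = 0.096), was called with the replicate number as a block (0.044) and without day 7 array 1 or 2 of E14 KO (0.044 each) or of J1 WT (0.015 each). The day 7 call of Tfap2c within J1 was kept under every alternative.

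The KO lines differed from each other on day 7, where 6 of the 10 genes were higher in E14 than in J1 beside 0.742% of all genes, and none was lower. The median difference of the 10 genes was 1.26, beside 0.01 over all genes. Syna differed by 2.68 ± 0.31, Plac1 by 1.66 ± 0.38, Rhox9 by 1.60 ± 0.39, Krt7 by 1.43 ± 0.30, Krt8 by 1.33 ± 0.27 and Krt18 by 1.19 ± 0.29 (limma, adjusted p = 0.00011, 0.021, 0.029, 0.012, 0.010 and 0.027). Tfap2c differed by -0.02 ± 0.25 between the KO lines, and Cdx2 by 0.50 ± 0.26 (adjusted p = 0.99 and 0.43). On day 0 none of the 10 was called by limma (0.396% of all genes were), with 1 at an unadjusted p under 0.05, Rhox9 at 1.09 ± 0.39. On day 3 none was called either (0.0451% of all genes were), with 2 at an unadjusted p under 0.05, Tfap2c at 1.01 ± 0.25 and Krt8 at -0.69 ± 0.27. Of these, Tfap2c was called without J1 WT day 7 array 1 or 2.

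Of these 6 differences between KO lines, Syna kept its call under every alternative. The others were lost without some day 7 arrays. Without E14 array 2 the adjusted p was 0.16 for Krt7, 0.079 for Krt8, 0.16 for Krt18, 0.21 for Plac1 and 0.34 for Rhox9 (a difference of 0.91). Without J1 KO array 1 it was 0.054 for Krt7, 0.076 for Krt8, 0.11 for Krt18 and 0.14 for Rhox9. Without J1 KO array 2 it was 0.13 for Krt7, 0.087 for Krt8, 0.20 for Krt18, 0.29 for Plac1 and 0.16 for Rhox9, and without E14 array 1 it was 0.089 for Krt18.

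**Figure D4:**
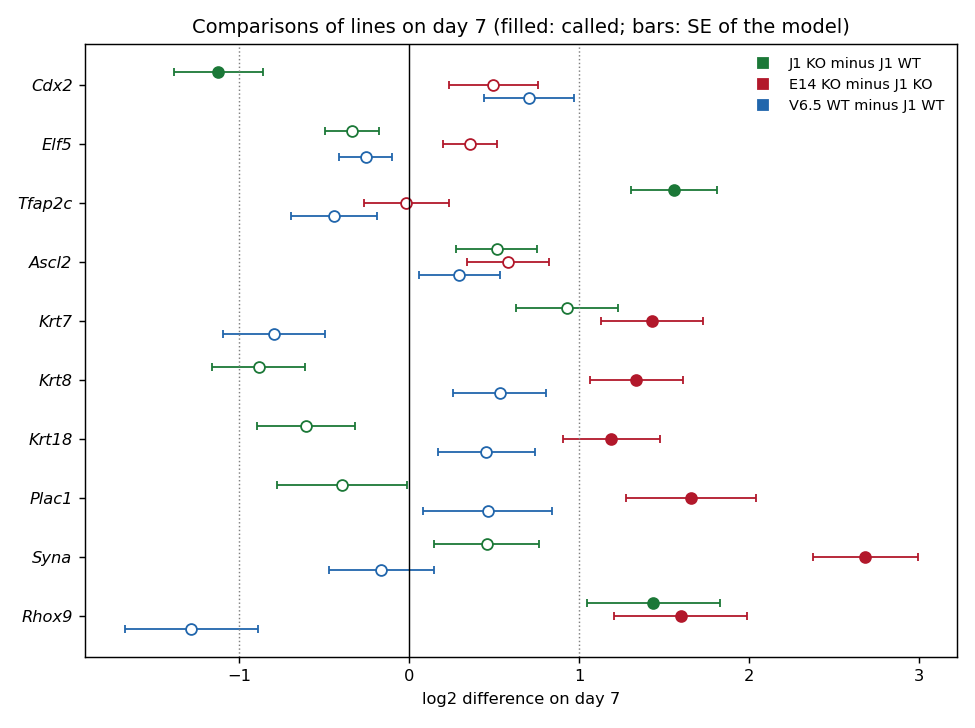
Differences in log2 expression on day 7 between J1 KO and J1 WT, between the KO lines (E14 minus J1) and between the WT lines (V6.5 minus J1); filled points were called, bars are the SE of the model and dotted lines mark 2-fold. The E14 minus J1 points of Syna (2.68), Plac1, Rhox9, Krt7, Krt8 and Krt18 lie to the right, that of Tfap2c lies at -0.02, and no point of the WT lines was called.

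Between the WT lines, Krt8 and Krt18 were lower in V6.5 than in J1 on day 0, with V6.5 minus J1 at -1.497 ± 0.27 and -1.32 ± 0.29 (limma, adjusted p = 0.0049 and 0.016), where 0.692% of all genes were lower. Krt8 was read at 10.04 and 11.03 in J1 WT and 9.02 and 9.06 in V6.5 WT, and Krt18 at 9.61 and 10.09 against 8.56 and 8.51. J1 WT array 2 was the brightest of the day for both, and without it neither was called (-1.001, adjusted p = 0.091 for Krt8, and -1.07, adjusted p = 0.18 for Krt18). The calls also ended without V6.5 WT day 0 array 1 (0.062 for Krt8 and 0.12 for Krt18), and that of Krt18 without array 2 (0.115). On day 3 and day 7 none of the 10 was called between the WT lines by limma (0.637% and 0.993% of all genes were), with 2 and 3 at an unadjusted p under 0.05. The largest day 7 difference was that of Rhox9, at -1.28 ± 0.39 (adjusted p = 0.075). It passed the threshold with the replicate number as a block (0.035), without E14 KO day 7 array 1 or 2 (0.035 each) and without J1 WT array 1 (-2.03, adjusted p = 0.0013), and was -0.53 without J1 WT array 2. On day 7, Krt7 was called without J1 WT array 1 (-1.42, adjusted p = 0.0017), and Krt18 (1.07, adjusted p = 0.0064) and Plac1 (1.35, adjusted p = 0.0040) without J1 WT array 2. On day 3, Tfap2c was called without J1 WT day 3 array 1 (1.17, adjusted p = 0.024).

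Over the 12 means of a genotype, line and day, the 10 genes fell into patterns that a correlation describes, with no test, since the means share clones and normalization. Krt8 and Krt18 had r = 0.976, and Plac1 had 0.939 with Krt8 and 0.910 with Krt18. Krt7 had 0.883 with Syna and 0.879 with Rhox9, and Syna and Rhox9 had 0.737. Cdx2 had 0.784 with Krt8 and -0.54 with Tfap2c, and Tfap2c and Ascl2 had 0.713. For 7 of the 10 genes (all but Cdx2, Tfap2c and Krt8) the highest of the 12 means was that of E14 KO on day 7, which for Elf5 was still under background. Among all genes, the highest correlation with Krt7 was that of Slc16a12 (0.979), with Krt8 Krt18 (0.976), with Krt18 Smpd1 (0.986), with Plac1 Ccl17 (0.978) and with Syna Cxcl15 (0.984). The genes most like Tfap2c were Nr5a2 (0.969), Prdm14 (0.966) and Zyg11a (0.966), and those most like Rhox9 were Tmem117 (0.969), Sfmbt2 (0.961) and Taf7l (0.958). For Cdx2 it was Mir143 (0.950), for Ascl2 Ubxn2a (0.914) and for Elf5 Ankdd1b (0.925).

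Other regulators of trophoblast stem cells, a list of 17 genes, all measured, were called higher in KO in 5 cases on day 3 (0.667% of all genes) and 4 on day 7 (3.08% of all genes), and none was lower. Their median differences were 0.70 and 0.38, beside -0.04 over all genes on day 7. Of the 17, 14 lay above 0 on day 3 and 11 on day 7. Among those below 0, not called, Eomes had day 3 means of 9.04 in KO and 10.22 in WT. On day 7 Fgfr2 had 9.03 in KO and 9.79 in WT, and Zfp36l1 had 9.40 and 10.28. On day 3 these were Plet1 (1.63), Esrrb (1.59), Bmp4 (1.58), Tfap2a (1.44) and Klf5 (1.06), and on day 7 Esrrb (3.57), Klf5 (1.67), Elf3 (1.66) and Plet1 (1.37). ESRRB and KLF5 also serve the pluripotency network of ESCs, and the WT mean of Esrrb went from 11.05 on day 0 to 6.93 on day 7, against 11.39 and 10.50 in KO. On day 0 none of the 17 was called by limma, where 0.552% of all genes were, and 2 had an unadjusted p under 0.05. The largest differences were those of Tfap2a (0.86) and Bmp4 (0.73). Averaging arrays ended the day 3 calls of Esrrb (adjusted p = 0.18), Klf5 (0.28), Bmp4 (0.086) and Plet1 (0.083). Leaving out E14 KO ended those of Esrrb (0.44), Klf5 (0.27) and Bmp4 (0.22), and that of Plet1 on day 7 (0.84, adjusted p = 0.055). The day 3 call of Esrrb also ended without the J1 KO clone (0.067), E14 KO day 3 array 1 (0.0514) or 2 (0.072) or J1 KO day 3 array 2 (0.0513), and was under 2-fold without the J1 WT clone (0.81). That of Klf5 ended without the J1 WT clone (0.63, adjusted p = 0.13), E14 KO day 3 array 2 (0.052) or J1 WT day 3 array 2 (0.89, adjusted p = 0.058).

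Genes of differentiated trophoblast, of which 20 of 26 listed were measured, showed 1 call on day 3, Peg10 (1.40, higher, as 0.667% of all genes were), and 2 on day 7, Pparg (1.58, higher, as 3.08% of all genes were) and Hand1 (-2.56, lower, as 1.28% were). Their median difference was 0.04 on day 3 and -0.05 on day 7. The Pparg mean in WT on day 7 was 6.15, under the background level, so its difference is against a probe set not above background. HAND1 also acts in heart and extraembryonic mesoderm, and its WT mean was 11.24 on day 7 against 8.67 in KO. Of the 20, 7 were under the background level in each genotype on day 7, among them Tpbpa of spongiotrophoblast, at 5.03 in KO and 4.24 in WT. That KO mean of Tpbpa joined 5.83 in E14 and 4.23 in J1. On day 0 none of the 20 was called by limma, where 0.552% of all genes were, and 3 had an unadjusted p under 0.05. The largest differences were those of Peg10 (0.63) and Hsd3b6 (0.56, under background in both genotypes). The call of Peg10 ended with averaged arrays (adjusted p = 0.090) and without E14 KO (0.056). That of Pparg ended with averaged arrays (0.079), without E14 KO (0.60, adjusted p = 0.063) and without V6.5 WT (0.053), and its difference was 2.55 without J1 KO.

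Of the Rhox cluster on the X chromosome, 7 of 12 other listed genes were measured. On day 7, Rhox6 (1.68) and Rhox13 (1.37) were higher in KO, as 3.08% of all genes were, beside a list median of 0.26. The Rhox13 mean in WT on day 7 was 5.75, under the background level. Rhox6 and Rhox9 are close paralogs, so signal shared by their probes cannot be told apart here. Without E14 KO, Rhox6 stood at 0.83 and Rhox13 at 0.77, both under 2-fold, without V6.5 WT Rhox6 was not called (adjusted p = 0.054), and without J1 KO Rhox6 stood at 2.53. On day 0 (0.552% of all genes called) and day 3 (0.667% higher), none of the 7 was called by limma. Of the 7, the number with an unadjusted p under 0.05 was 2 on day 0 and 1 on day 3. The largest differences were those of Rhox13 (0.79) and Rhox10 (0.79, under background in both genotypes) on day 0, and of Rhox13 (0.61) and Rhox6 (0.39) on day 3.

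**Figure D5:**
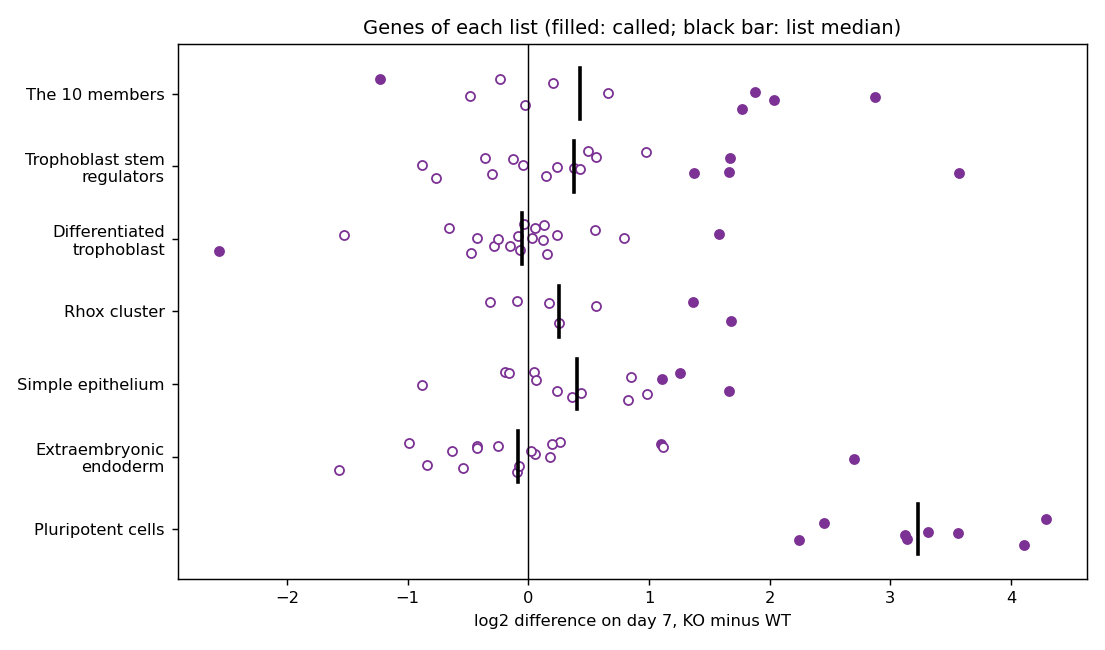
KO minus WT difference in log2 expression on day 7 for the genes of each list (points, filled where called), with the list's median as a black bar. All 8 pluripotency genes lie above 2, the 10 trophoblast genes run from -1.23 to 2.87, and the differentiated trophoblast genes centre on -0.05.

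Markers of other cells moved on day 7 as well, where 3.08% of all genes were higher and 1.28% lower. All 8 pluripotency markers were higher in KO, with list means of 10.97 to 11.59 over the KO arrays and 7.67 to 8.54 over the WT arrays, with none under background in KO and 1 in WT. Of 9 germ cell markers 4 were higher, with list means of 8.31 to 8.58 in KO and 7.15 to 7.33 in WT, and with none and 2 markers under background. Of 14 simple epithelium markers 3 were higher, Elf3 (1.66), Cldn4 (1.26) and Esrp1 (1.10), with list means of 8.73 to 9.36 in KO and 8.16 to 8.82 in WT and 1 marker under background in each. Of 18 extraembryonic endoderm markers 2 were higher, Cubn (2.70) and Lama1 (1.10), with list means of 8.46 to 9.63 in KO and 8.13 to 9.46 in WT and none under background. In that list 8 of 18 lay above 0 and the median was -0.09, with Ttr at -1.57 and Gata6 at -0.99 (limma, adjusted p = 0.18 and 0.062), and the day 7 interaction was called above 0 for none and below 0 for 5. Of 9 surface ectoderm markers 1 was higher, Grhl3 (1.21), with list means of 7.22 to 7.47 in KO and 6.90 to 7.16 in WT, and with 2 and 3 markers under background. Of 14 feeder fibroblast markers 3 were lower on day 7 (8.29 to 8.80 in KO, 8.38 to 9.70 in WT) and 3 were higher on day 0 (8.65 to 9.65 in KO, 8.20 to 8.45 in WT). The day 7 samples were started from ESCs depleted of feeders, and 6 of the 14 rose in WT from day 0 to day 7. On day 7 this list is thus not read as a measure of feeders. On day 3, where Tfap2c was the 1 member called, Zfp42 (2.26) of the pluripotency markers and Prdm14 (1.39) and Prdm1 (1.38) of the germ cell markers were higher, as were 2 of 18 extraembryonic endoderm markers (15 above 0, median 0.44), 2 of 9 surface ectoderm markers and 1 of 14 simple epithelium markers. The part of these cells in the differences of Tfap2c, Rhox9, Krt7, Syna and Cdx2 was not tested.

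Between the KO lines on day 7, none of the 8 pluripotency markers was called by limma, with 1 at an unadjusted p under 0.05 and a median difference of -0.13. Of the 18 extraembryonic endoderm markers 2 were higher in E14, 17 lay above 0, and the median difference was 0.77. The other trophoblast lists held 1 of 17 stem regulators, 3 of 20 differentiated trophoblast genes and 3 of 7 Rhox genes higher in E14. Over all genes tested, 0.742% were higher. The medians of these 3 lists were 0.12, 0.10 and 0.35, and none of their genes was lower. Of these called genes, Tpbpa was under background in both lines (5.83 in E14 and 4.23 in J1), and Rhox12 was in J1 (5.67). Some of these calls ended when 1 day 7 array was left out. Those of Plet1 and Cited1 also ended when 1 day 0 or day 3 array was left out. Of the 14 simple epithelium markers 1 was higher, with a median of 0.48. The part of these cells in the line difference of Syna, Plac1, Rhox9 and the keratins was not tested.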

How the data were processed

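The authors deposited log2 expression for each probe set. The submitters' processing notes name RMA and Affymetrix Power Tools. RMA subtracts background, gives all arrays 1 distribution (which hides a change of total RNA per cell) and summarises probes. Their versions, the build and the gene annotation used were not given in the sources used here. Log base 2 was taken from the range of the values, 2.08 to 14.4. The number of arrays limits the precision. So does the number of lines for KO against WT, which were E14 and J1 against J1 and V6.5. Of 35556 probe sets, 21789 had 1 gene symbol. Another 1621 with several symbols and 12146 with no entry were not used. For 999 genes with several probe sets the one of highest mean was used, giving 19938 genes.

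Differences were fitted with limma 3.58.1 and statmod 1.5.0 in R 4.3.3. The model held 6 genotype-by-day means with the clone (line and genotype) as a random block (consensus correlation 0.161, 18 residual degrees of freedom); line comparisons came from 12 means (12 degrees of freedom). The code was tested on simulated data. The members and lists were chosen with earlier results of these data known. All 10 members are named. Of each other trophoblast list, up to 4 called genes with the largest change per comparison are named, or the 2 largest if none was called. Klf5 on day 3, Eomes, Fgfr2, Zfp36l1, Tpbpa, Cited1, Rhox12 and the marker genes were named after their values were seen. Alternatives were no fold minimum, no clone block, averaged arrays, a replicate block, median centring, quantile normalization again and a filter on low signal. Further ones were the mean of all probe sets of a gene, and leaving out each array, each clone or both J1 WT day 7 arrays. Replicate numbers were not taken to pair the arrays.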

Additional observations from a re-analysis of the deposited data

Results flagged for a closer look

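Each of these genes changed from day 0 to day 7 by a different amount in KO than in WT, by limma's test of that difference. The KO change exceeded the WT change by 1.94 on the log2 scale for Krt7, 2.12 for Syna, 1.95 for Rhox9 and 1.30 for Tfap2c. For Cdx2 the KO change less the WT change was -1.17. None of these genes was called without the E14 KO or the V6.5 WT clone, and Krt7 alone was called with averaged arrays. Dixon's test at its 95% critical value marked no single array of the 10 genes in 60 groups of a genotype and day; it cannot mark 2 arrays that stand apart together, as those of E14 KO did for Syna on day 7.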

How the results depend on the processing

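Of 36 called differences of the 10 genes, 14 kept their call under every alternative, and none reversed. Counts of called members that moved by more than 1.5 times were as follows, and the cause was not tested. KO minus WT: 1 in place of 0 on day 0 without the J1 WT clone; on day 3, in place of 1, 2 with no clone block or without both J1 WT day 7 arrays, and 0 with averaged arrays, median centring or without E14 KO; on day 7, 3 in place of 5 without V6.5 WT. The day 7 interaction went from 5 to 3 with no clone block or without J1 KO, 1 with averaged arrays, and 0 without E14 KO or V6.5 WT. KO day 3 minus day 0 went from 0 to 1 with no fold minimum, the low-signal filter, or without the J1 WT clone or both its day 7 arrays. WT day 3 minus day 0 went from 2 to 1 with averaged arrays and 0 without V6.5 WT. With the replicate block, J1 KO minus J1 WT on day 3 went from 1 to 2 and V6.5 minus J1 on day 7 from 0 to 1. Smaller moves were KO minus WT on day 7 to 6 with no fold minimum and 4 with averaged arrays or without E14 KO or J1 KO, KO day 7 from 6 to 5 with averaged arrays and 4 without E14 KO, and WT day 7 from 5 to 6 with no fold minimum.

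Leaving out each array gave 0 to 0, 0 to 2 and 4 to 5 calls for KO minus WT on days 0, 3 and 7, 0 to 0 and 2 to 5 for the interactions of days 3 and 7, 0 to 1 and 6 to 6 for KO days 3 and 7, and 0 to 2 and 5 to 5 for WT. It gave 0 to 1, 0 to 2 and 1 to 4 for J1 KO minus J1 WT on days 0, 3 and 7, 0 to 0, 0 to 1 and 1 to 6 for E14 minus J1, and 0 to 2, 0 to 1 and 0 to 2 for V6.5 minus J1. Where 1 array was left of a line and day, it was assumed to vary like the others.

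Same-numbered arrays did not deviate together in every pair: over 66 pairs of groups the correlation ran from -0.40 to 0.47 (median 0.057; 30 over 0.1), with 9 of 12 groups closest to an array of their own number. Median centring shifted an array by at most 0.113. Over all genes, calls of KO minus WT on days 0 and 3 were 110 and 151, and 22 and 43 with averaged arrays; over the alternatives that moved them by more than 1.5 times they ran from 22 to 402 and 43 to 434. So moved, the interactions of days 3 and 7 ran from 0 to 24 (10) and 313 to 1617 (673), and KO day 3 from 124 to 1269 (233). With no fold minimum, KO minus WT on day 7 went from 870 to 3250, KO day 7 from 492 to 3299, WT day 3 from 407 to 2324 and WT day 7 from 1791 to 7301.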
